A study of Mus musculus with 103 samples.

Results

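Lung cells held back by magnetic beads that bind Prominin1, the product of the gene Prom1, made up 4 of the 103 samples of a mouse study of Prom1-expressing cells, their tumours and metastases, each measured on 1 Affymetrix mouse array with perfect match probes. They were taken as the sorted samples whose source was lung, and were set against the mean of 7 organ means from the other untreated sorted samples, each organ weighted equally. Those 24 samples were 5 of liver, 4 each of kidney and uterus, 3 each of prostate, salivary gland and small intestine, and 2 of stomach. All 8 groups shared 1 preparation per the labels: tissue was dissociated, red blood cells were lysed, dead cells were removed, cells were bound by the anti-Prominin1 beads, and RNA was taken with a PicoPure kit. None of these groups carried a treatment in the labels. The limma fit also held the other sorted samples, 9 of liver treated with DDC, a compound that injures liver and bile ducts, and 3 of neonatal liver, for its estimate of the spread. For the untreated groups, strain, genotype, age, sex, the number of animals behind a sample and the purity of the sort are not given there. Whether samples of an organ are separate animals is not stated there either, and p-values here cover only the sample-to-sample spread, part of which may be technical. Lung samples are called lung 1 to 4 in the order of their labels, which carry no order in time.

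The gas-exchanging epithelium of the lung consists of flat alveolar type 1 cells and cuboidal type 2 cells, which make surfactant, the lipid and protein film that lowers surface tension. The airways are lined by club cells, which secrete uteroglobin, and by ciliated cells. Dense capillaries lie against the alveolar epithelium, fibroblasts beneath it lay down elastic fibres, and alveolar macrophages on its surface clear spent surfactant. Prominin1 is a membrane protein of cell protrusions that is used as a marker of stem and progenitor cells in several epithelia, and endothelial progenitors have also been sorted with it.

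All values are log2 levels as deposited, where a difference of 1 is a factor of 2 in signal, and differences are lung minus the other organs ± the standard error of limma. A gene was tested when its mean in lung or in at least 1 other organ passed 4.06, the filter level. Below it, signal is close to array background, and a difference from such a level is a lower bound in size. A gene was called when its limma p, adjusted over all tested genes, was under 0.05 and its difference was at least 1 in size. "Higher" and "lower" are used of called genes only, and a number in brackets after a gene is its difference.

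The 4 lung samples were less alike than those of any other organ. The median SD of a gene was 0.675 between lung samples, against 0.139 (kidney) to 0.541 (liver) in the other organs. The limma fit uses a spread pooled over all 10 groups. Where lung samples vary more than that, the standard errors and p-values given here are too small for lung. Lung 3 stood apart: its Pearson r over genes was 0.81 with lung 1, 0.87 with lung 2 and 0.86 with lung 4, while the other pairs reached 0.92 to 0.95. The array median of lung 3 was 4.24 and its 75th percentile 5.76, against 3.85 to 4.00 and 6.14 to 6.63 in the 24 samples of other organs. Lung 1 was at the other end, with a 75th percentile of 6.69. The 3' minus 5' difference of control probe sets, which grows with RNA degradation, was 0.70 to 1.07 for actin in lung against 0.41 to 1.8 in other organs. The same measure for Gapdh was 0.79 to 1.39 in lung, highest in lung 2, and 0.14 to 1.23 in other organs.

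In lung against the other organs, 4116 of 13113 tested genes (31.4%) were called, 1678 higher (12.8%) and 2438 lower (18.6%). The median difference over all tested genes was -0.23, the value beside which each gene list below stands. Without lung 3 that median was -0.12, with 1867 genes higher and 1800 lower. Under quantile normalization it was -0.12 as well, with 2002 higher and 2115 lower. Lung lay above all 24 other samples in 109 genes (0.831%) and below all of them in 139 (1.06%). Of those genes, 104 were called higher (0.793%) and 134 called lower (1.02%), together 1.81% of the genes tested.

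**Figure D1:**
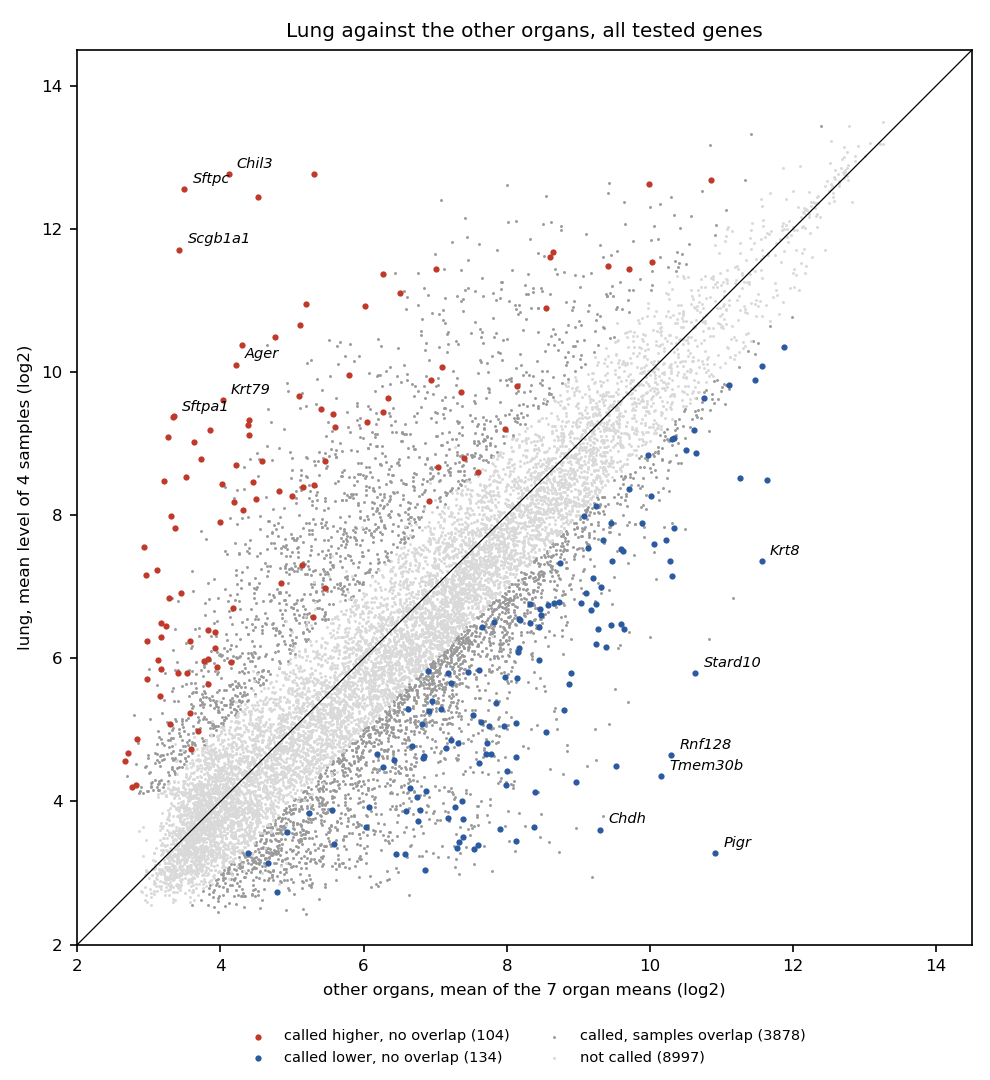
Each point is 1 of 13113 tested genes, with its mean log2 level in lung on the vertical axis and the mean of the 7 other organ means on the horizontal axis. The 104 genes called higher without overlap of samples are red, the 134 called lower without overlap are blue, called genes with overlapping samples are dark grey and genes not called are light grey.

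Prom1 itself, the target of the sort, stood at 6.6, 6.75, 5.30 and 6.79 in lung 1 to 4, against 2.64 to 12.19 (median 10.60) in the 24 other samples. Lung 3 was the lowest of the 4, and lung lay inside the range of the other organs while liver was lower still. The difference was -3.34 ± 0.65 (limma adjusted p = 5.9e-05). Organ by organ it was -5.63 against stomach, -5.18 against uterus, -4.40 against kidney and 2.91 against liver, all called. With liver, prostate and small intestine alone as the other organs it was -1.34 and not called (adjusted p = 0.11). Among 12 tested genes of the prominin and progenitor marker list, 2 were higher and 4 lower (median -0.28). Without lung 3 these were 4 and 4 (median 0.12), as they were under quantile normalization (median -0.07). With all samples the higher genes were Cd44, the hyaluronan receptor (3.10 ± 0.40), and Cd34, a sialomucin of endothelial and blood progenitors (2.98 ± 0.54). Besides Prom1 the lower ones were its relative Prom2 (-1.94), the intestinal stem cell receptor Lgr5 (-1.88, or -0.89 and not called as the mean of its probe sets) and the integrin subunit Itgb4 (-1.35). Bulk samples cannot tell fewer cells of a type from less RNA per cell, here or in any value below.

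The organ label was borne out by the largest increases, which included secreted products of lung cells. Sftpc, the surfactant protein C of alveolar type 2 cells, had 13.35, 12.13, 11.91 and 12.82 in lung 1 to 4, against 2.60 to 8.06 (median 3.16) in the other organs, with prostate 1 the highest of these. The club cell secretory protein Scgb1a1 had 11.30, 12.08, 10.95 and 12.52 in lung, against 2.75 to 5.35 (median 3.23). Both were apart from every other sample in each lung sample, with differences of 9.06 ± 0.43 (adjusted p = 7e-18) and 8.29 ± 0.28 (adjusted p = 4.4e-22). Chil3, a chitinase-like protein of alveolar macrophages, had 12.21, 12.86, 13.34 and 12.66 in lung, against 2.78 to 6.55 (median 3.30), a difference of 8.66 ± 0.57 (adjusted p = 2.1e-14). Unlike the epithelial genes it was lowest in lung 1 and highest in lung 3. Ager, the receptor for advanced glycation end products found on alveolar type 1 cells, had 11.88, 8.89, 8.35 and 11.29 in lung, against 3.06 to 6.23 (median 4.10), and differed by 5.88 ± 0.44. The surfactant protein A gene Sftpa1 had 11.18, 8.99, 6.97 and 10.34 in lung, against 2.76 to 5.43 (median 3.21), and differed by 6.03 ± 0.39. In both, lung 1 and lung 4 were high and lung 3 was the lowest, but no lung sample overlapped with another organ.

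The other 10 of the 15 increases without overlap that were named by rule came from several cell types. The rule left out genes whose call was lost without probe sets marked for cross-hybridisation, where the gene had an unmarked probe set. Chil4 was left out so: it differed by 7.46 on a marked probe set and by -0.30 on its other one. Capillary genes were Aplnr, the apelin receptor (6.07 ± 0.30), the sodium channel gene Scn7a (5.83 ± 0.26) and Tmem100, a membrane protein of lung vessels (5.75 ± 0.43). Aplnr had 11.72, 10.35, 9.17 and 10.24 in lung, against 2.67 to 7.86 (median 3.53), with the same order of lung samples at the top and bottom as Ager. Immune genes included Fpr2, a formyl peptide receptor (5.55 ± 0.68), the T and NK cell adhesion molecule Cd2 (5.40 ± 0.22), and Ear3 (7.93 ± 0.63) and Ang5 (6.03 ± 0.34), both of the ribonuclease A family. Ear3 rested on probe sets marked for cross-hybridisation, so it cannot be told from its near copies. Krt79, a keratin that alveolar macrophages of mice also express, differed by 5.58 ± 0.31, and Sec14l3, a lipid-binding protein of airways, by 5.34 ± 0.17. Pcolce2, an enhancer of procollagen processing, completed the group at 5.73 ± 0.62. Without overlap of samples, the differences of these 10 lay between 5.34 and 7.93.

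Promoters from RefSeq (GRCm38.p6) are shown for 4 of the genes that were higher in lung, to set an alveolar type 2 pair (Sftpa1 and Cxcl15) beside a type 1 gene (Ager) and a macrophage gene (Chil3). Of 26 named genes looked up, 19 had a promoter in that table. Each line runs from 250 bases before to 50 after the start, 5' to 3' on the gene's own strand, and capitals mark CTCAAG, the core of sites bound by the lung transcription factor NKX2-1, and TATAAA, a core promoter element. Both were searched on both strands. Sftpa1 lies at chr14:41131538-41131837 (plus strand), Cxcl15 at chr5:90794284-90794583 (plus), Ager at chr17:34597600-34597899 (plus) and Chil3 at chr3:106167515-106167814 (minus).
Sftpa1: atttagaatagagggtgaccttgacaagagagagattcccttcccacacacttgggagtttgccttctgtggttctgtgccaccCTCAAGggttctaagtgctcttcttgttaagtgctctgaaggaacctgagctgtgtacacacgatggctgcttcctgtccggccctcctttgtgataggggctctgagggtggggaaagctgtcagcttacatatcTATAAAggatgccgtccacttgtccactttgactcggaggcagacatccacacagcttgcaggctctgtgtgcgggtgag
Cxcl15: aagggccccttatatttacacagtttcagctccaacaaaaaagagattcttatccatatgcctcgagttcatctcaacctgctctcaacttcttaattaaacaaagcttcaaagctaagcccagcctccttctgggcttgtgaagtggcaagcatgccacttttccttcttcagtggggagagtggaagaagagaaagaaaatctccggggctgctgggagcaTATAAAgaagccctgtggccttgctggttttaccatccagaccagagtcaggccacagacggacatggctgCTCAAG
Ager: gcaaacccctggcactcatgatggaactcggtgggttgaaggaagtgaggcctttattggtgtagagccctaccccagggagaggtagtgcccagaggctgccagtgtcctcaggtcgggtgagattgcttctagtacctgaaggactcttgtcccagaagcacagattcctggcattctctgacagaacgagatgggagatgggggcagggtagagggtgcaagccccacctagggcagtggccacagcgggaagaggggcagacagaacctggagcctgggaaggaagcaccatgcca
Chil3: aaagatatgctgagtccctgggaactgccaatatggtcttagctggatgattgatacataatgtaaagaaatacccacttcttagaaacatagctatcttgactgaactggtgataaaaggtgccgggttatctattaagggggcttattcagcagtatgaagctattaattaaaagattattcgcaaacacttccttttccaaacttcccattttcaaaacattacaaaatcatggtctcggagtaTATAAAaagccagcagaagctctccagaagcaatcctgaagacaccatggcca
Sftpa1 and Cxcl15 each held 1 CTCAAG and 1 TATAAA, Chil3 held 1 TATAAA, and Ager held neither. The CTCAAG of Sftpa1 lay before the start, whereas that of Cxcl15 lay after it, at the end of its line. The type 2 pair thus did not share a CTCAAG before the start. The TATAAA of Chil3 began at -3 from the start, while those of Sftpa1 and Cxcl15 lay further before it. Over all 32851 promoters of the table, 15.9% held CTCAAG and 13.6% held TATAAA. A match in these letters is a description of the sequence and not a bound site.

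The largest decreases included genes of polarised epithelium. Pigr, the receptor that carries immunoglobulin A across epithelia, had 2.71, 3.87, 3.16 and 3.39 in lung 1 to 4, all under the filter level, against 7.87 to 12.66 (median 11.31) in the other organs. Its difference of -7.63 ± 0.40 (adjusted p = 7.2e-17) is therefore a lower bound in size. Tmem30b, a subunit of lipid flippases, had 5.10, 4.12, 4.45 and 3.74 in lung, against 6.27 to 11.71 (median 9.94), and Rnf128, a ubiquitin ligase, had 4.02, 5.29, 5.06 and 4.23 in lung, against 7.06 to 12.16 (median 10.36). They differed by -5.81 ± 0.47 and -5.65 ± 0.32 with no overlap between the groups. Chdh, the mitochondrial choline dehydrogenase, fell by 5.70, the microtubule linker Hook1 by 5.03, the lipid transfer protein Stard10 by 4.84, Urah, an enzyme of urate breakdown, by 4.74, and the desmosomal cadherin Dsg2 by 4.70. Cldn2, the claudin of leaky tight junctions, differed by -4.68 ± 0.44, but against prostate (-1.34) and salivary gland (-0.77) alone it was not called. The ectonucleotidase Enpp3 differed by -4.30 ± 0.54. All 25 of the increases and decreases named by rule kept their direction and call under every alternative that gave a value. Ear3, Chdh and Urah had no value without cross-hybridising probe sets. The other genes were named only if their call was kept in that setting, so it could not fail for them. All 25 were also chosen for no overlap, so their stability is partly set by the choice.

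Genes common to epithelia were low in lung as a group. Of 20 pan-epithelial markers, 0 were higher and 19 lower, with a median difference of -3.68. Their mean level, called the score of a list, was 5.78, 5.56, 5.19 and 5.77 in lung 1 to 4, against 5.30 to 10.05 (median 9.75). Krt8, a keratin of simple epithelia, had 7.64, 7.47, 6.90 and 7.41 in lung, against 8.64 to 13.02 (median 11.60), with no overlap and a difference of -4.20 ± 0.30. Its partner Krt18 had 7.09, 6.83, 4.31 and 6.83 in lung, against 5.34 to 12.89 (median 11.27), lowest in lung 3 (-4.56 ± 0.43). The serine proteases Prss8 (-4.32 ± 0.30) and St14 (-4.31 ± 0.36), the claudin Cldn7 (-4.16 ± 0.47) and E-cadherin, Cdh1 (-3.71 ± 0.60), were lower as well. Epcam, the epithelial adhesion molecule, had 7.43, 9.08, 8.77 and 8.05 in lung, against 3.26 to 12.42 (median 11.11): it differed by -1.94 ± 0.63 (adjusted p = 0.0098) over all organs, with 4.23 against liver, and not called without lung 1 (-1.64). Krt19 was the member not called, with 8.61, 9.61, 10.58 and 9.51 in lung, against 2.93 to 12.56 (median 8.63, difference 0.86 ± 0.58), though it was called without stomach (1.37) and in 2 more alternatives. The markers of endothelium and macrophages given below moved the other way in the same samples, and their part in the low epithelial levels was not tested.

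Markers of alveolar, secretory and ciliated epithelium were higher for part of each list. Of 15 tested alveolar type 2 markers, 8 were higher and 0 lower (median 1.13). Without lung 1 or without lung 4 these were 7 and 2, and the median was 0.70 without lung 4. The score was 7.94, 6.76, 6.39 and 7.45 in lung, against 4.51 to 7.11 (median 5.16). Besides Sftpc and Sftpa1 these included the lung chemokine Cxcl15, with 10.69, 8.39, 8.06 and 10.05 in lung, against 2.94 to 8.97 (median 3.81, difference 4.59 ± 0.32). The phosphate transporter Slc34a2 had 9.08, 6.75, 5.80 and 7.52 in lung, against 3.23 to 7.16 (median 4.72, difference 2.59 ± 0.33). Sftpd, surfactant protein D, was higher by 2.44 ± 0.64 against all organs, yet it differed by -2.84 from uterus, where it was called lower in lung. Lpcat1, which makes the disaturated lipid of surfactant, differed by 2.31 ± 0.57. Abca3, the lipid pump of lamellar bodies, was not called: it had 8.97, 9.03, 7.04 and 9.18 in lung, against 7.49 to 11.41 (median 9.08, difference -0.84 ± 0.29, and called lower at -1.04 without lung 4 and at -1.09 without small intestine).

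Of 14 type 1 markers, 8 were higher and 2 lower (median 1.40, 0.77 without lung 1), with a score of 8.52, 6.41, 5.55 and 7.71 in lung, against 4.95 to 6.45 (median 5.40). The score was highest in lung 1 and lung 4, and lung 2 and 3 overlapped with other organs. Emp2, a tetraspan membrane protein, had 12.63, 10.54, 9.63 and 11.61 in lung, against 3.80 to 9.31 (median 6.56), apart from all other samples (4.6 ± 0.46). The anchoring protein Akap5 had 6.94, 3.17, 2.81 and 6.37 in lung, against 2.39 to 3.72 (median 2.84), so that lung 2 and 3 lay at background (1.97 ± 0.37, or 1.27 without lung 1). Hopx, a homeodomain-only protein, had 12.03, 9.88, 9.55 and 11.18 in lung, against 4.97 to 11.01 (median 9.27, difference 1.63 ± 0.40), and the chloride channel protein Clic5 differed by 2.66 ± 0.38. Cldn18, a claudin with lung and stomach forms, was higher by 1.2 ± 0.41 against all organs and differed by -5.13 from stomach, with its call lost without lung 1 (0.37) or lung 4 (0.83). The water channel Aqp5 was lower (-1.37 ± 0.32), with 7.30, 5.12, 3.93 and 7.19 in lung, against 3.20 to 11.83 (median 5.13). Against salivary gland alone it differed by -5.90, without lung 3 it was not called (-0.72), and with liver, prostate and small intestine as the other organs its sign turned (1.24). Lmo7, a junction protein, was the other lower member (-1.57 ± 0.53), not called without lung 2 (-1.19) or lung 3 (-1.04), and at -2.36 without lung 1.

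Secretory airway markers were split: of 17 tested, 6 were higher and 3 lower (median 0.39, 0.21 without lung 2). The secretoglobin Scgb3a2 had 8.09, 10.10, 6.77 and 10.20 in lung, against 3.11 to 4.80 (median 3.54, difference 5.07 ± 0.31). Bpifa1, a secreted defence protein of upper airways, had 6.01, 9.97, 5.45 and 8.79 in lung, against 2.66 to 3.54 (median 2.88, difference 4.63 ± 0.37). In both genes lung 2 and 4 were high, lung 1 and 3 were low, and no sample overlapped. This order differed from that of the type 1 and type 2 markers, in which lung 1 and 4 led. Cbr2, a carbonyl reductase of mouse lung, was higher by 3.58 ± 0.65, while Cyp2f2, a club cell cytochrome that liver also makes, was not called, with 8.40, 9.21, 6.78 and 9.58 in lung, against 2.80 to 13.24 (median 7.42), though it was called without liver (1.38) or salivary gland (1.45). The 3 lower members were the potassium channel Kcnk1 (-5.33 ± 0.35), the sulfotransferase Sult1d1 (-4.6 ± 0.54) and the claudin Cldn10 (-3.29 ± 0.20).

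Of 21 measured ciliated cell genes 11 were tested, and 8 of these were higher (median 1.12), or 4 without lung 2. The score was 4.41, 4.82, 4.14 and 4.22 in lung, against 3.11 to 3.72 (median 3.40), with no overlap. It includes the 10 genes under the filter level, so part of it is signal near background, and the array median of lung 3 was raised (4.24). Tppp3, a tubulin polymerisation protein, had 10.53, 9.94, 9.20 and 10.17 in lung, against 3.55 to 8.98 (median 4.93, difference 4.16 ± 0.24). Ccdc153, a coiled-coil protein of motile cilia, had 6.10, 7.16, 4.39 and 6.28 in lung, against 2.70 to 3.63 (median 3.05, difference 2.86 ± 0.23). Both were apart from all other samples, whereas Foxj1, the regulator that defines ciliated cells, lay under the filter level at 3.30, 3.92, 3.76 and 3.35. None of the tested airway basal (6), neuroendocrine (7) or goblet cell (7) markers was higher, and 2, 3 and 7 of them were lower. Goblet genes were tested mainly through stomach and small intestine, with 7 of 7 lower against each. Against prostate, salivary gland and uterus 3 of 3 were lower. The 1 tested against kidney was higher, and of 2 tested against liver 1 was higher and 1 lower. Neuroendocrine genes tested numbered 5 against stomach, all lower, and 0 to 3 against each other organ. Krt5, a basal keratin, differed by -1.19 ± 0.32, the granin Chga by -1.16 ± 0.15 (-0.67 and not called without stomach) and Agr2, a disulfide isomerase of mucous cells, by -4.95 ± 0.50.

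**Figure D2:**
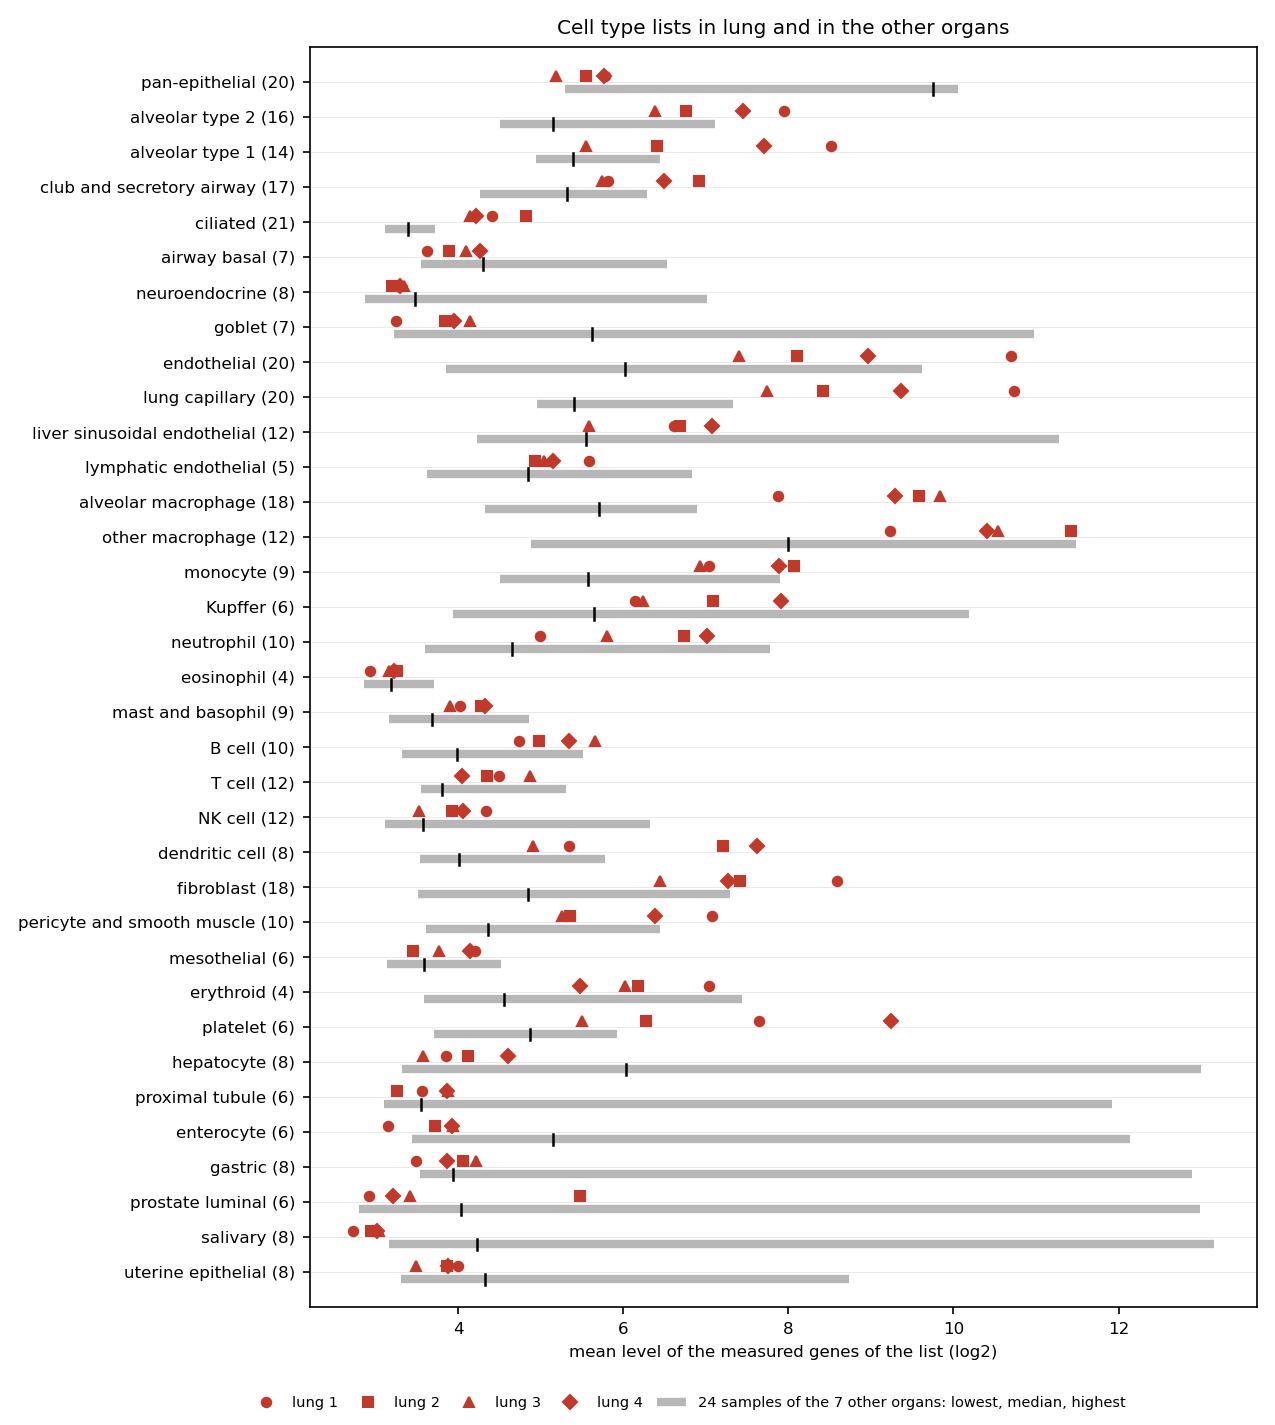
Score, the mean log2 level of the measured members, of 35 cell type lists, with lung 1 to 4 as red points and, beneath them, the lowest, median (tick) and highest of the 24 other samples as a grey bar; the number of measured genes stands in brackets. The lung capillary, alveolar macrophage and ciliated scores lie above the bar in every lung sample, and the salivary score lies below it.

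Surfactant production and turnover, a list that joins type 2 and macrophage genes, had 13 of 18 genes higher and 2 lower (median 2.37). Its score was 8.85, 8.88, 8.38 and 8.85 in lung, against 5.33 to 7.81 (median 6.6), apart in all 4 samples. Genes of clearance were among the higher ones. Abcg1, the exporter of cholesterol from macrophages, had 10.45, 12.08, 12.32 and 10.91 in lung, against 3.63 to 10.34 (median 6.65, difference 4.43 ± 0.50). Csf2rb, the shared chain of the GM-CSF receptor, which alveolar macrophages need to clear surfactant, had 8.43, 10.61, 10.14 and 10.59 in lung, against 3.27 to 9.63 (median 6.11, difference 3.75 ± 0.44). Pltp, a phospholipid transfer protein, differed by 3.14 ± 0.50 and the lysosomal lipase Lipa by 1.38 ± 0.24, though Lipa was not called without cross-hybridising probe sets (0.54). Of the lipid synthesis genes, the desaturase Scd1 was higher (1.24 ± 0.32, not called without lung 1 at 0.98), fatty acid synthase, Fasn, was lower (-1.63 ± 0.45) and choline kinase, Chka, was lower (-1.43 ± 0.35). Pcyt1a, the rate-limiting enzyme of phosphatidylcholine synthesis, was not called (-0.50 ± 0.31).

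Endothelial genes were higher in lung in nearly the whole list. Of 20 general endothelial markers, 19 were higher and 1 lower, with a median of 3.32 and a score of 10.69, 8.10, 7.41 and 8.96 in lung, against 3.86 to 9.63 (median 6.02). Against liver alone, where 18.8% of tested genes were called higher, 4 of 20 were higher. VE-cadherin, Cdh5, had 11.44, 8.41, 7.45 and 9.49 in lung, against 2.82 to 9.75 (median 4.95, difference 4.31 ± 0.58), with lung 1 above all 24 other samples. The angiopoietin receptor Tek had 12.32, 9.25, 9.0 and 10.08 in lung, against 3.57 to 11.11 (median 4.90, difference 4.89 ± 0.64). Von Willebrand factor, Vwf, had 11.28, 8.61, 8.80 and 9.97 in lung, against 2.71 to 8.02 (median 5.33), with no overlap (4.57 ± 0.52). Pecam1, the endothelial junction molecule, differed by 3.54 ± 0.67 and the VEGF receptor Kdr by 3.56 ± 0.61, though Kdr was not called against liver (-0.56). Ramp2, a receptor partner for adrenomedullin, was the lower one, with 9.37, 8.26, 7.24 and 6.49 in lung, against 6.54 to 13.08 (median 10.25, difference -2.36 ± 0.60), but the mean of its probe sets differed by 0.12 and was not called.

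Of 20 lung capillary markers, 19 were higher (median 3.62), and the score of 10.74, 8.42, 7.74 and 9.36 in lung, against 4.96 to 7.33 (median 5.40), did not overlap. The count was 14 without lung 1 and 20 without lung 3. Carbonic anhydrase 4, Car4, had 11.30, 9.33, 9.16 and 10.01 in lung, against 3.10 to 10.03 (median 3.70, difference 4.42 ± 0.41), and was not called against small intestine (0.14) or kidney (0.64), whose epithelia also carry it. Gpihbp1, which anchors lipoprotein lipase on capillaries, had 11.61, 9.34, 7.6 and 10.82 in lung, against 2.81 to 12.42 (median 4.21), with its highest values in liver (4.92 ± 0.61). Calcrl, the receptor of the calcitonin peptide family, differed by 4.93 ± 0.57, the adhesion molecule Icam2 by 4.74 ± 0.65 and Epas1, the hypoxia-inducible factor of endothelium, by 3.47 ± 0.31. The stem cell factor receptor Kit was the member not called, with 10.14, 6.67, 4.72 and 7.06 in lung (1.63 ± 0.72), though it was called in 8 alternatives, such as without lung 3 (2.44). Among 12 liver sinusoidal markers 5 were higher, led by Lyve1, a hyaluronan receptor (3.15 ± 0.71), and 2 lower, including the scavenger receptor Stab2 (-1.51 ± 0.55). Without lung 1 or without lung 4 these were 3 and 1, with Stab2 not called (-1.33 and -1.45), and the list median of 1.14 was 0.68 without lung 2. Lyve1 was the only one of 5 lymphatic markers called.

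Genes of vessel pathways were mostly higher as well. Caveola genes had 5 of 7 tested higher and 1 lower (median 2.49). Cav1, the coat protein of caveolae, had 12.45, 10.89, 10.67 and 11.46 in lung, against 3.19 to 9.12 (median 6.19), with no overlap (5.09 ± 0.48). Of 15 vascular tone genes 11 were higher and 1 lower (median 1.76). The subunits of soluble guanylate cyclase, the nitric oxide receptor, did not overlap with other organs: Gucy1a1 had 10.34, 7.25, 6.87 and 8.26 in lung, against 2.84 to 5.82 (median 4.20), and Gucy1b1 had 9.24, 5.92, 5.24 and 7.0 in lung, against 2.63 to 4.64 (median 3.30). They differed by 3.98 ± 0.41 and 3.57 ± 0.39, with lung 1 highest in both. Ptgis, the prostacyclin synthase, differed by 4.02 ± 0.49 and the endothelin receptor Ednrb by 3.78 ± 0.66, while the endothelial nitric oxide synthase Nos3 was not called (0.64 ± 0.57). In Notch and BMP signalling 10 of 16 tested genes were higher and 0 lower (median 2.02). Acvrl1, an endothelial BMP receptor, had 10.39, 8.09, 6.89 and 9.66 in lung, against 3.10 to 6.65 (median 4.56, difference 4.18 ± 0.48). Its co-receptor Eng (2.97 ± 0.55), the ligand Bmp6 (3.80 ± 0.57) and the endothelial receptor Notch4 (2.63 ± 0.60) were higher too. The general endothelial score lay above the median of the other organs in all 4 lung samples, and its part in these levels was not tested.

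Alveolar macrophage genes formed the other large group. Of 17 tested, 16 were higher and 0 lower (median 3.49). Their score of 7.87, 9.59, 9.84 and 9.29 in lung was lowest in lung 1 and highest in lung 3, against 4.33 to 6.89 (median 5.70). Itgax, the integrin CD11c that marks these cells, had 7.34, 9.85, 10.13 and 9.16 in lung, against 3.43 to 6.99 (median 4.00, difference 4.73 ± 0.43). Olr1, an oxidised lipoprotein receptor, had 7.05, 8.49, 8.21 and 10.16 in lung, against 2.68 to 6.09 (median 3.0, difference 5.26 ± 0.50), and neither gene overlapped with other organs. Pparg, the nuclear receptor that alveolar macrophages require, had 6.66, 9.32, 8.70 and 8.44 in lung, against 3.88 to 8.87 (median 5.63, difference 2.45 ± 0.28). The protease Ctsk differed by 4.57 ± 0.39 and the proton pump subunit Atp6v0d2 by 4.47 ± 0.43. Marco, a scavenger receptor, had 5.25, 8.18, 8.48 and 8.83 in lung, against 2.90 to 11.14 (median 3.48): it was higher against all organs (2.67 ± 0.68) but lower than in salivary gland (-3.42). The ubiquitin ligase Trim29 was not called (0.90 ± 0.20), though it was called in 4 alternatives, such as without lung 1 (1.22) and under quantile normalization (1.19).

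General macrophage markers were higher against the mean of the organs and not against each of them. Of 12, 11 were higher (median 2.69), with a score of 9.23, 11.42, 10.54 and 10.41 in lung, against 4.89 to 11.49 (median 7.99). Against uterus, where 6.52% of tested genes were called higher, 0 of 12 were higher and 1 lower (19.1%), namely the fractalkine receptor Cx3cr1 (-2.99). Against prostate the count was 1 (10.6% of tested genes called higher), against salivary gland 1 (12.6%), against kidney 12 (21.3%) and against stomach 12 (17.2%). The lysosomal glycoprotein Cd68 had 9.83, 11.63, 11.88 and 11.37 in lung, against 3.86 to 11.79 (median 8.01, difference 3.72 ± 0.59). Adgre1, an adhesion receptor of tissue macrophages, differed by 2.73 ± 0.54, the complement component C1qb by 2.66 ± 0.56 and lysozyme, Lyz2, by 2.33 ± 0.36. Of 8 monocyte genes 5 were higher, with the factor XIII chain F13a1 ahead (3.63 ± 0.86), and of 6 Kupffer cell genes 3 were higher and 1 lower, or 1 and 0 without lung 4. Vsig4, a complement receptor, led the Kupffer list (3.44 ± 0.61).

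Receptors and messengers of innate immunity were higher in most members. In pattern recognition 12 of 15 genes were higher and 0 lower (median 3.03). Besides Fpr2 these included the lectin Clec7a, a receptor for fungal glucan (4.44 ± 0.51), and the lipoprotein receptor Tlr2 (4.45 ± 0.45). Cd36, a scavenger receptor of capillaries and macrophages, had 12.57, 11.24, 11.30 and 11.58 in lung, against 6.58 to 10.93 (median 8.61), with no overlap (3.03 ± 0.48). Of 21 chemokine ligands 16 were higher and 1 lower (median 3.05, score 8.10, 9.66, 8.03 and 9.54 in lung, against 4.53 to 9.11 (median 5.66)). The B cell attractant Cxcl13 had 9.88, 12.38, 11.19 and 12.09 in lung, against 3.27 to 12.21 (median 7.59, difference 4.62 ± 0.77). Neutrophil attractants Cxcl2 (4.07 ± 0.84) and Cxcl1 (3.85 ± 0.48) and the monocyte attractant Ccl2 (3.54 ± 0.47) were higher, and Ccl28, an epithelial chemokine, was lower (-2.95 ± 0.24). Against uterus 4 of 20 tested chemokines were higher and 3 lower, beside 6.52% and 19.1% of all tested genes. Against kidney 17 of 19 were higher and 0 lower, beside 21.3% and 28.7%.

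Of 14 interleukins and growth factors of immunity, 12 were higher and 0 lower (median 1.79). Higher were 14 against kidney (21.3% of all tested genes), 12 against stomach (17.2%), 11 against small intestine (20.4%) and 9 against liver (18.8%). Only 5 were higher against salivary gland (12.6%), 3 against prostate (10.6%) and 1 against uterus (6.52%). Against stomach and uterus 1 gene each was lower (24.8% and 19.1%). Il6, an acute phase cytokine, had 8.58, 9.82, 8.73 and 10.83 in lung, against 2.38 to 10.22 (median 2.96, difference 4.37 ± 0.67). The inflammatory cytokines Il1b (2.73 ± 0.76) and Tnf (2.41 ± 0.62) and their inhibitor Il10 (2.97 ± 0.51) were higher too. Csf2, which encodes GM-CSF, had 3.93, 3.14, 3.43 and 9.53 in lung, so that lung 4 alone was above the filter level (1.34 ± 0.53, or -0.16 and not called without lung 4). The alarmin Il33 was not called (-0.27 ± 0.55). In the immediate early list, genes induced within minutes of stimulation, 8 of 17 were higher and 0 lower (median 1.03). Against kidney 15 of 16 were higher (21.3% of all tested genes), against small intestine 12 (20.4%) and against liver 10 (18.8%). Against stomach 6 of 17 were higher (17.2%), and against prostate, salivary gland and uterus 0 (10.6%, 12.6% and 6.52%). The 8 higher genes included Ier3, an early response gene (2.42 ± 0.59), and Atf3, a stress-induced transcription factor (1.83 ± 0.44), but the AP-1 subunit Fos was not called (0.26 ± 0.27). Of 10 heat shock genes only the small heat shock protein Hspb1 was called (2.82 ± 0.39).

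Antigen presentation and lymphoid lists were less uniform. In the MHC class II list 10 of 12 genes were higher (median 2.06), with a score of 8.69, 10.61, 8.87 and 10.32 in lung 1 to 4. Against salivary gland and uterus 0 were higher (12.6% and 6.52% of all tested genes). The peptide loader H2-DMa differed by 2.76 ± 0.59 and the protease Ctss by 2.73 ± 0.38. Of 7 tested dendritic cell genes 6 were higher (median 1.77). The T cell attractant Ccl17 had 6.72, 10.45, 5.19 and 11.08 in lung, against 3.16 to 6.21 (median 4.08, difference 4.03 ± 0.52), high in lung 2 and 4. Cd209a, a lectin of monocyte-derived dendritic cells, differed by 3.35 ± 0.43. Among 7 tested B cell genes 5 were higher, including Ms4a1, the CD20 antigen (2.54 ± 0.33), whereas Pax5 and Ighm lay under the filter level. Cd2 was the only one called of 9 tested T cell genes (median 0.04), and the T cell receptor chain Cd3e had 4.39, 4.62, 5.32 and 4.83 in lung (0.02 ± 0.17). The chemokine Ccl5 was the only one called of 7 tested NK cell genes (1.56 ± 0.64), and lost its call without lung 1, 2 or 4 (1.06 without lung 4, 2.46 without lung 3).

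Of 9 tested neutrophil genes 4 were higher and 1 lower (median 1.28, 0.72 without lung 4), and those higher numbered 3 without lung 2 and 6 without lung 1. Against salivary gland 0 of 9 were higher and 3 lower (12.6% and 19.7% of all tested genes). Of 7 tested, 6 were higher against kidney (21.3%) and 5 each against liver (18.8%) and small intestine (20.4%). There were 4 against stomach (17.2%), 2 against prostate (10.6%) and 1 against uterus (6.52%). S100a8, a calgranulin subunit, had 5.68, 8.72, 7.93 and 10.65 in lung, against 2.97 to 10.24 (median 4.20, difference 2.78 ± 0.75), high in lung 4 and low in lung 1, and the collagenase Mmp9 differed by 3.30 ± 0.50. The 1 tested eosinophil gene was not called, 3 more lay under the filter level, and Gata2 was the only mast cell and basophil gene called (1.88 ± 0.46, or 1.21 without lung 1). Platelet genes had 5 of 6 higher (median 1.83), or 3 without lung 4 (median 0.98). Ppbp, a platelet chemokine, had 10.54, 7.86, 5.33 and 11.43 in lung, against 3.13 to 8.72 (median 3.70, difference 4.38 ± 0.60), and Pf4, platelet factor 4, which macrophages also make, had 10.76, 12.58, 11.49 and 12.33 in lung (4.17 ± 0.70). Hba-a1, the alpha globin gene, was the only called gene of 3 tested erythroid ones (2 were called without lung 3 or lung 4), with 13.96, 12.91, 12.31 and 11.27 in lung, against 4.43 to 12.23 (median 8.34, difference 4.61 ± 0.80). In the complement list 8 of 13 genes were higher and 2 lower (median 1.38). The anaphylatoxin receptor C5ar1 (3.39 ± 0.58) stood at 1 end and the inhibitor Cfi (-3.64 ± 0.44) at the other. Against kidney, small intestine and stomach 10, 10 and 9 of 13 were higher (21.3%, 20.4% and 17.2% of all tested genes). Against liver 3 were higher and 7 lower (18.8% and 16.4%), against uterus 1 and 2 (6.52% and 19.1%). Of 12 tested, 1 was higher and 2 lower against prostate (10.6% and 21.9%), and 3 and 0 against salivary gland (12.6% and 19.7%).

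Mesenchymal genes were higher as well. Of 16 tested fibroblast markers 13 were higher and 0 lower (median 2.66), with a score of 8.59, 7.42, 6.44 and 7.27 in lung, against 3.52 to 7.30 (median 4.85). Inmt, a methyltransferase abundant in lung stroma, had 13.36, 11.81, 11.40 and 12.01 in lung, against 3.24 to 11.66 (median 9.33, difference 4.73 ± 0.57). Itga8, an integrin of lung fibroblasts, had 11.56, 8.71, 7.77 and 9.91 in lung, against 3.09 to 9.91 (median 4.40, difference 4.82 ± 0.72). The mesenchymal transcription factor Tcf21 had 10.72, 8.57, 6.61 and 9.26 in lung, against 2.74 to 8.92 (median 3.60, difference 4.25 ± 0.46). All 3 were highest in lung 1 and lowest in lung 3. Col1a1, a chain of type I collagen, was higher by 1.48 ± 0.34 against all organs and differed by -3.54 from uterus, where it was called lower in lung. Of 9 tested pericyte and smooth muscle genes 5 were higher (median 1.54, 0.92 without lung 1). Acta2, smooth muscle actin, had 10.12, 9.61, 10.06 and 10.03 in lung, against 3.32 to 10.63 (median 5.30, difference 3.72 ± 0.29), and the pericyte gene Higd1b had 7.87, 4.93, 3.47 and 6.90 in lung (2.57 ± 0.38). None of 5 tested mesothelial genes was called.

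All 9 tested elastic fibre genes were higher (median 1.94), with a score of 7.95, 6.83, 5.36 and 6.85 in lung, against 3.48 to 6.87 (median 4.29). Against uterus 1 of 9 was higher and 2 were lower, beside 6.52% and 19.1% of all tested genes. Elastin, Eln, had 7.68, 6.0, 4.85 and 5.25 in lung, against 3.47 to 5.31 (median 4.10, difference 1.83 ± 0.26), with lung 3 and 4 inside the range of the others, and as the mean of its probe sets it was not called (0.93). Loxl1, which crosslinks elastin, had 9.75, 8.74, 6.13 and 8.32 in lung, against 2.61 to 8.47 (median 3.54, difference 4.04 ± 0.37), and the microfibril protein Mfap4 differed by 4.12 ± 0.37.

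Of 19 tested lung transcription factors 9 were higher and 4 lower (median 0.88). Tbx4, a T-box factor of lung mesenchyme, had 8.94, 5.74, 4.73 and 6.57 in lung, against 2.59 to 4.29 (median 3.12, difference 3.33 ± 0.33). Tbx5, its partner in lung bud outgrowth, had 5.72, 5.29, 5.70 and 5.18 in lung, against 2.57 to 3.71 (median 3.13, difference 2.31 ± 0.14). They were the 2 factors without overlap. Hoxa5, needed for airway and diaphragm development, had 9.72, 7.23, 6.61 and 8.34 in lung, against 2.79 to 8.34 (median 3.50, difference 3.59 ± 0.77), and was not called against kidney (0.43). Klf2, a flow-induced factor of endothelium, differed by 1.91 ± 0.55 and Foxf1, a factor of lung mesenchyme and vessels, by 1.42 ± 0.28 (0.98 and not called without lung 1). The lower ones were epithelial: Foxa1 (-2.99 ± 0.53), Sox9 (-2.30 ± 0.44), Sox2 (-1.41 ± 0.16) and Elf5 (-1.37 ± 0.19). Without salivary gland Sox2 (-0.65) and Elf5 (-0.47) were not called. Nkx2-1, the factor that defines lung epithelium, lay under the filter level at 3.03, 3.20, 3.48 and 3.49 in lung and was not tested. Of 16 transcription factors of other organs, Sox17, an endothelial factor, was higher (2.52 ± 0.61) and 7 were lower (median -0.72), with the hepatocyte factor Hnf4a ahead (-3.91 ± 0.40). Only 4 (salivary gland) to 10 (small intestine) of the 16 were tested against a given organ, so these counts partly follow from the choice of genes.

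Epithelial lists of the other organs held no gene higher in lung. Lower were 7 of 8 hepatocyte genes, 3 of 6 proximal tubule, 6 of 6 enterocyte, 7 of 8 gastric, 3 of 6 prostate luminal, 8 of 8 salivary and 3 of 6 uterine epithelial genes. Many of these genes passed the filter only through the organ they mark. All 8 salivary genes were tested against salivary gland, but only 1 or 2 against each other organ. For gastric genes these numbers were 8 against stomach and 2 to 5 elsewhere. The lower counts are thus largely set by the choice of genes. Lung 2 departed from the other lung samples in prostate luminal genes, with a score of 5.48, against 2.92 to 3.42 in the other 3, and without lung 2 the count was 6. The proximal tubule count was 5 without lung 4. In lung 2 the prostate secretory protein Pbsn stood at 7.58, against 2.96, 2.92 and 3.13 in lung 1, 3 and 4. Conversely prostate 1 held the highest Sftpc level outside lung, at 8.06, and the highest Chil3 and Ager levels, at 6.55 and 6.23.

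Xenobiotic genes of airways and alveoli had 7 of 16 members higher and 1 lower (median 0.80, 1.31 without lung 3). The flavin monooxygenase Fmo2 (3.02 ± 0.52), the cytochrome Cyp4b1 (2.90 ± 0.61), both known from lung, and the extracellular superoxide dismutase Sod3 (2.11 ± 0.36, or 1.39 without lung 1) were among those higher. Gsta4, a glutathione transferase for lipid aldehydes, had 7.22, 6.85, 5.55 and 6.27 in lung, against 7.58 to 12.51 (median 8.81), below all other samples (-3.13 ± 0.43). Among 12 genes of ion and water transport the water channel Aqp1 was higher (1.95 ± 0.48) and 8 were lower (median -1.71), including the sodium pump subunit Atp1b1 (-4.31 ± 0.42) and the chloride channel Cftr (-2.72 ± 0.37). The subunits of the epithelial sodium channel, Scnn1a (-0.16 ± 0.29), Scnn1b (0.21 ± 0.19) and Scnn1g (0.30 ± 0.21), were not called.

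Proliferation genes had 0 of 17 members higher and 4 lower (median -0.78), beside 12.8% and 18.6% of all tested genes. The lower count is thus near the share of all genes. Their score was 4.38, 5.39, 4.40 and 5.28 in lung, against 3.52 to 8.47 (median 4.32). Without lung 1 there were 2 lower and without lung 2 there were 6, and array weights gave 2 with a median of -0.18. Rrm2, a subunit of ribonucleotide reductase, differed by -1.59 ± 0.43 and the mitotic kinesin Kif11 by -1.17 ± 0.27, or by -0.63 as the mean of its probe sets, when it was not called. Mki67, the Ki-67 antigen, had 5.43, 7.94, 5.96 and 8.53 in lung, against 3.34 to 9.78 (median 5.96), and was not called (0.46 ± 0.50). Against kidney 7 of 12 tested members were higher (21.3% of tested genes), while against small intestine, where 29.1% of tested genes were called lower, 17 of 17 were lower. Against stomach 16 of 17 were lower (24.8% of tested genes), and in the immediate early list 5 of 16 were lower against salivary gland (19.7% of tested genes).

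Set against each organ in turn, the comparisons share the 4 lung samples, so their counts stand side by side only. Lung differed in 5779 of 11564 tested genes from kidney (50.0%), in 5747 of 11607 from small intestine (49.5%), in 4909 of 11674 from stomach (42.1%) and in 4037 of 11464 from liver (35.2%). Fewer genes were called against prostate (3713 of 11427, 32.5%), salivary gland (3653 of 11325, 32.3%) and uterus (2919 of 11404, 25.6%). Under quantile normalization the split of higher and lower calls moved to 1173 and 1410 against uterus, where it was 744 and 2175, to 1584 and 2053 against prostate, where it was 1212 and 2501, and to 1827 and 1901 against salivary gland, where it was 1425 and 2228. Without lung 3 the calls against uterus were 783 higher and 1438 lower. In all 7 comparisons 200 genes were called higher, which is 1.53% of the 13113 tested against all organs, and 176 called lower (1.34%). Lung capillary genes were higher in 15 to 18 of 20 members against every organ, and alveolar macrophage genes in 11 to 15 of 17, beside 6.52% (uterus) to 21.3% (kidney) of all tested genes, 20.4% for small intestine among them. Pan-epithelial genes had 20 of 20 members lower against small intestine (29.1% of tested genes), and 12 lower and 1 higher against kidney (28.7% and 21.3%). Against liver 5 of 17 were lower and 3 higher (16.4% and 18.8%). Alveolar type 2 genes had 11 of 14 higher and 0 lower against prostate (10.6% and 21.9% of tested genes). Against uterus 5 of 15 were higher and 4 lower (6.52% and 19.1%).

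**Figure D3:**
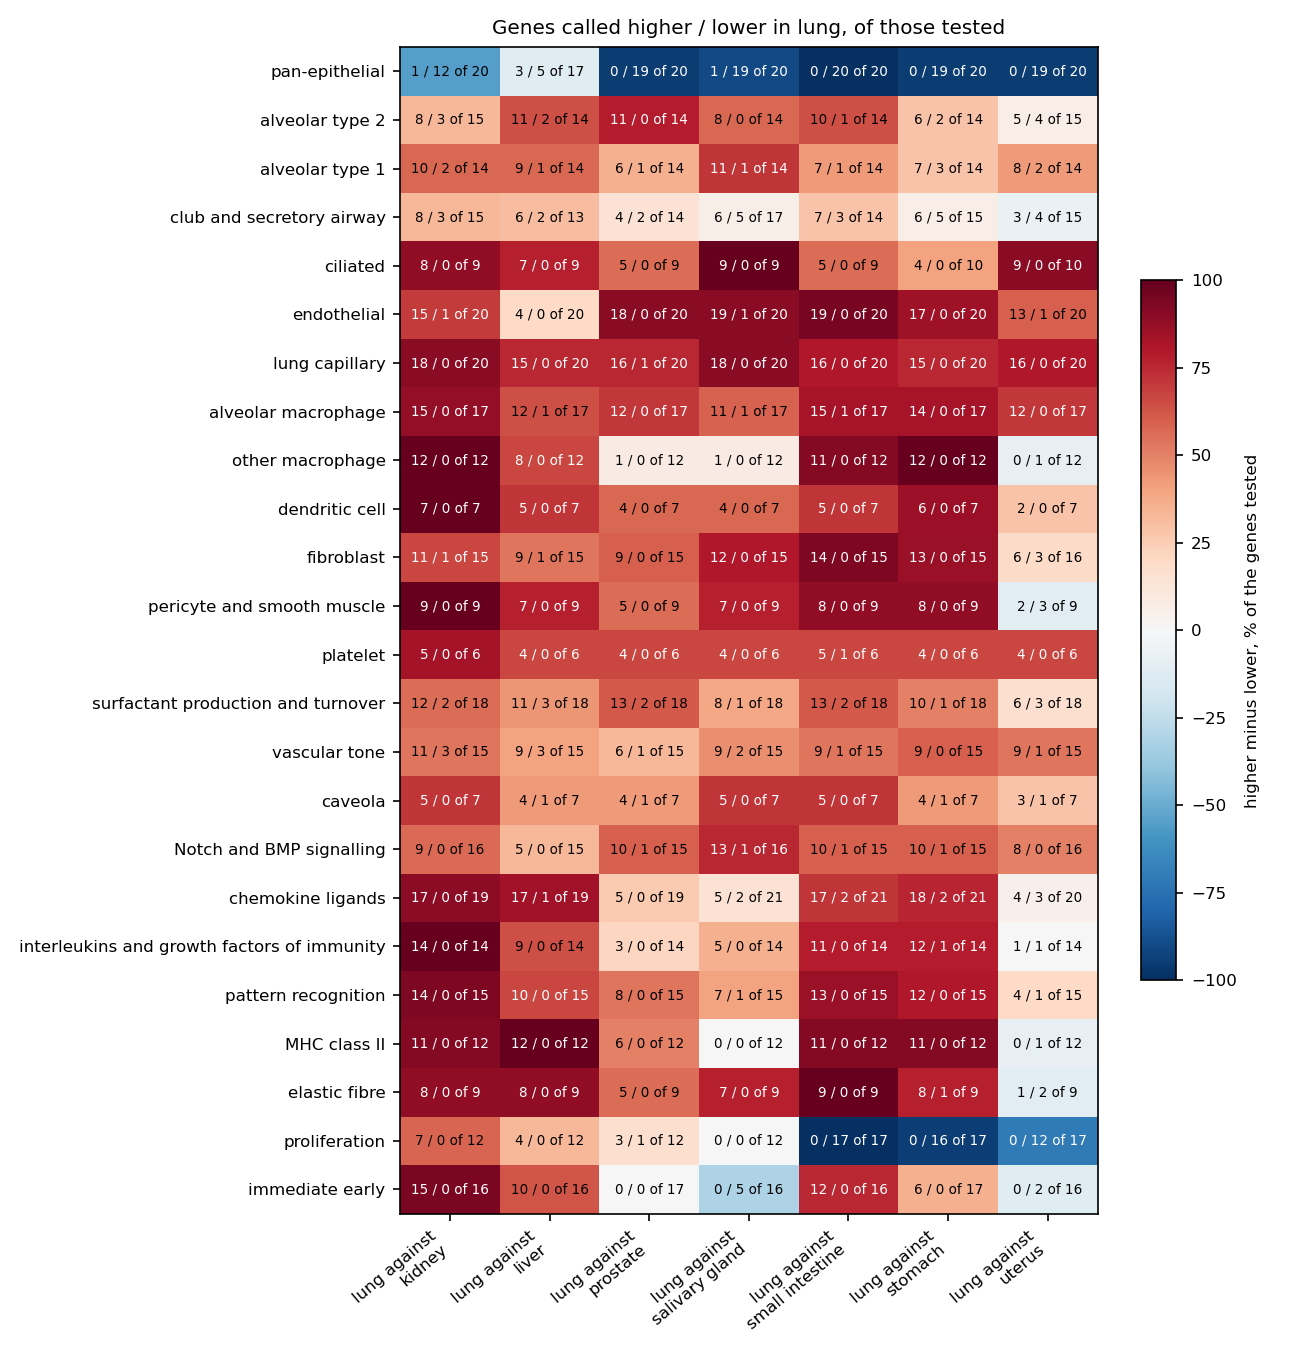
Number of genes called higher and lower in lung, of those tested, for 24 lists (down the page) against each of the 7 other organs (across), with colour giving the higher minus the lower share in percent of the tested genes. Lung capillary and alveolar macrophage genes are red in every column, while general macrophage, chemokine and MHC class II genes are pale against uterus, salivary gland or prostate.

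The lung samples varied among themselves along cell type lists. Lung 1 had the highest scores of the 4 for endothelium, capillary, type 1, type 2 and fibroblast genes, and the lowest for alveolar macrophages. Lung 3 had the lowest scores for those first 5 lists and the highest for alveolar macrophages, and lung 2 and 4 led the dendritic cell genes at 7.21 and 7.63, against 5.35 and 4.90 in lung 1 and 3. Among all 17097 genes, a gap of at least 2 above all 39 other sorted samples, DDC-treated and neonatal liver included, was sought. It was found for 50 genes in lung 1, 0 in lung 2, 105 in lung 3 and 9 in lung 4. The 24 samples of other organs had 0 to 14 such genes. Lung 3 also lay that far below all others in 75 genes. Of its 105 genes above all others, 3 were on the Y and 4 on the X chromosome. The share of all genes on these chromosomes was not counted, so these numbers do not show an excess there. Tbx4, Apln, the apelin ligand, and Pdgfra, a growth factor receptor of fibroblasts, were among the genes of lung 1, and without it Apln (0.84) and Pdgfra (1.0) were not called. The genes of lung 4 included Csf2 and Prg4, the lubricin of joint fluid.

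The 6 called genes with the largest SD between lung samples followed single samples. Prg4 had 4.51, 7.0, 3.20 and 12.54 in lung, against 2.39 to 10.36 (median 3.92, difference 2.10 ± 0.82), and differed by 0.20 without lung 4, when it was not called. Ott, a gene transcribed in ovary and testis, had 2.53, 2.52, 9.87 and 3.19 in lung (1.71 ± 0.59), Gm3715 had 3.42, 2.89, 10.32 and 3.96 (2.13 ± 0.57) and Orly had 3.0, 3.47, 10.14 and 3.70 (1.8 ± 0.57), each high in lung 3 and under the filter level in the rest. Ssty2, a Y-linked spermatid gene family member with near copies, had 4.16, 5.33, 11.58 and 6.13 in lung and differed by 3.40 ± 0.60, or by 1.8 without lung 3. Ccl22, a chemokine of dendritic cells, had 6.45, 9.64, 3.66 and 10.67 in lung, against 3.14 to 6.48 (median 3.75, difference 3.40 ± 0.55), with lung 3 the lowest and at background.

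**Figure D4:**
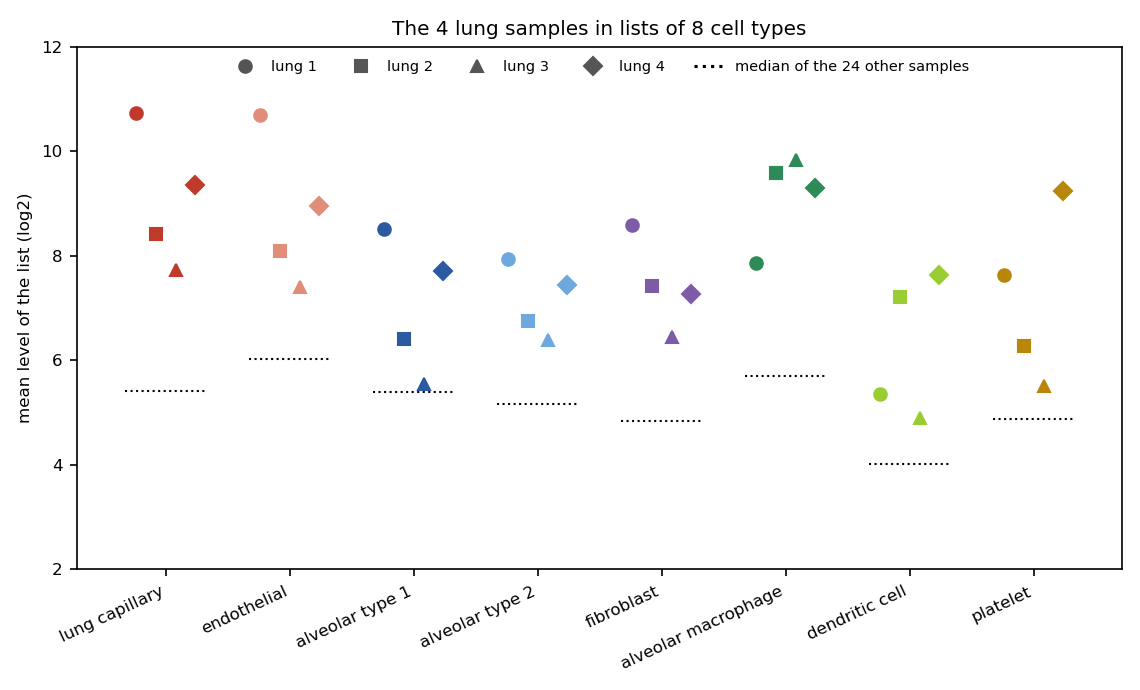
Scores of 8 cell type lists (mean log2 level of the measured members) in lung 1 to 4; the dotted line is the median of the 24 samples of other organs. Lung 1 is highest for endothelial, capillary, alveolar and fibroblast genes, and lung 3 is highest for alveolar macrophage genes.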

How the data were processed

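The values used are the log2 levels that the authors deposited for 103 arrays (range 1.85 to 14.36), made with Partek 6.6 per the submitters' processing notes. The sources used here do not give the background correction, normalization or build, and no scaling was added. Left out of 45141 probe sets were 104 controls, 551 with more than 1 gene and 15588 with no annotation here. The remaining 28898 named 17097 genes, and 28689 of these probe sets matched RefSeq by gene number. Each gene was represented by its probe set of highest mean. No array was a copy of another (highest Pearson r 0.993).

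Differences were fitted with limma 3.58.1 (R 4.3.3, the data.table package at 1.17.8; lmFit, contrasts, eBayes with an intensity trend) over all 40 sorted samples in 10 groups, DDC-treated and neonatal liver included, which leaves 30 residual degrees of freedom, with Benjamini-Hochberg adjustment within each comparison. The scripts were tested on simulated data. The filter level was the 40th percentile of the sorted samples. The number of arrays limits the precision. Python 3.11.15 with pandas 2.3.3, matplotlib 3.10.9 and numpy 2.4.6 made the summaries.

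The members, the 53 gene lists (35 cell type, 18 pathway; 585 of 657 genes measured) and the alternatives were chosen with earlier results of these data known. Named by rule were Prom1, the 15 largest increases and 10 largest decreases without overlap, up to 6 members per list and its defining members, and the 6 called genes with the largest SD in lung. Increases and decreases whose call was lost without probe sets marked for cross-hybridisation were left out, where the gene had an unmarked probe set. Other named members, such as those not called or with opposite sign in a single organ, were chosen after their values were seen, as were the 4 promoters.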

Additional observations from a re-analysis of the deposited data

Results flagged for a closer look

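Of 241 values with 4 lung samples, 13 had a highest or lowest sample whose gap to the next passed Dixon's limit for 4 samples as a share of the range. Chance puts about 1 of 20 groups past it, and 13 of 241 is near that share. Genes of 1 sample are not independent of each other. The chance share does not hold for Ott, Gm3715 and Orly, which were named for their large SD between lung samples. It does not hold either for members chosen after their values were seen. Lung 3 was the far sample in 7 values: it was lowest for Prom1 (5.30), Abca3 (7.04), Krt18 (4.31) and the score of the surfactant production and turnover list (8.38), and highest for Ott (9.87), Gm3715 (10.3) and Orly (10.1). Lung 1 was lowest for Cxcl2 (10.7) and Tlr2 (9.68). Lung 2 was highest for the prostate gene Pbsn (7.58) and for Prom2 (3.58), a level under the filter. Lung 4 was highest for Csf2 (9.53) and lowest for Fos (11.7).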

How the results depend on the processing

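All 8 counts of called genes stayed within 1.5 times the reported count under every alternative run, while their split did not: against uterus quantile normalization gave 1173 higher and 1410 lower, in place of 744 and 2175. For lung against the other organs the number of called genes ran from 3369 to 4409 over the settings and from 3667 to 4603 with a sample left out. Prom1 was lower in lung in every alternative, at -4.39 to -1.34, and missed the threshold with liver, prostate and small intestine as the other organs (-1.34, adjusted p = 0.11). With a sample left out it lay between -3.49 and -2.99. For lung against the other organs the share of higher calls was highest without lung 3, with 1867 higher and 1800 lower, against 1678 and 2438 with it. Median centring gave 1645 higher and 2525 lower, array weights 1821 and 2018. Of 183 named genes with a test, 150 kept direction and side of the threshold throughout. Over 8571 values of these genes, 77 lost the call, 29 gained it and 5 changed sign with a call on at least 1 side: Aqp5 with liver, prostate and small intestine as the other organs (1.24), Csf2 without lung 4 (-0.16, up to 1.97 without lung 2), Ramp2 as the mean of its probe sets (0.12), and Pbsn, at -0.14 and not called, with array weights (1.2) and without prostate (1.37). The cause was not tested. Besides Prom1, Aqp5, Csf2 and Ramp2, a call was lost at least once for Apln, Aqp1, Ccl5, Chga, Cldn18, Elf5, Eln, Epcam, Foxf1, Gm3715, Hopx, Kif11, Krt5, Lgr5, Lipa, Lmo7, Orly, Ott, Pdgfra, Prg4, Scd1, Sox2 and Stab2. Ott, Gm3715 and Orly fell under the filter without lung 3. Counts of list members, an alternative chosen after seeing the data, stayed within 1.5 times in 2431 of 2491 cases, and in all cases for 34 of 53 lists. The NK cell median (0.01) was -0.16 under quantile normalization, -0.02 under median centring, -0.20 with array weights and -0.35 without lung 1. The lymphatic median (0.12) was -0.01 with array weights and -0.09 without lung 1, and the T cell median (0.04) was -0.06 without lung 3. No paired analysis was possible because the labels carry no replicate numbers shared between organs. Signal near the background limits differences of genes under 4.06, and the unequal lung samples limit all of them.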
